A study of Mus musculus with 24 samples.

Results

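The Notch receptors Notch1, Notch2, Notch3 and Notch4, the ligands Jag1, Jag2, Dll1 and Dll4, and the target genes Hes1 and Hey1 were followed through sorted and cultured cells of the mouse bile duct and its stroma. The members are 10 of the 49568 genes of the deposited tables and were found by their symbols. In the homeostasis experiment, RNA was sequenced from EpCAM+ ductal cells (DCs, the epithelium of the bile duct), PDGFRα+SCA1+ and PDGFRα+SCA1− mesenchymal cells, and PDGFRα−SCA1+ stromal cells of 3 healthy littermates aged 12 weeks, named A, E and F. All of these mice were heterozygous for a Pdgfra-H2B-EGFP knock-in on a C57BL/6 background, so 1 Pdgfra allele encodes the reporter by which the PDGFRα gates were set. In the transwell experiment, cells of wild type C57BL/6 mice aged 8 to 12 weeks gave 6 groups of 2 libraries each. These were DCs at day 0, DCs grown for 15 days as organoids in growth-factor rich medium (EM organoids), DCs grown for 15 days on an insert above SCA1+Msc cells (co-cultured organoids), SCA1+Msc cells at day 0, SCA1+Msc cells cultured alone, and SCA1+Msc cells cultured below DCs. SCA1+Msc cells of the transwell experiment were sorted without a PDGFRα gate, and the insert did not let cells through. For the cultures, the paper names 2 littermates as the source of SCA1+Msc cells and 2 others as that of DCs. Between these lineages, cell type and mouse therefore cannot be told apart. All sorts excluded CD45, CD11b and CD31. EM organoids and co-cultured organoids differed in medium as well as in the presence of stroma, and these cannot be told apart.

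Notch signalling passes between neighbouring cells: a ligand of the Jagged or Delta-like family on one cell binds a receptor on the next, the receptor is cleaved by an ADAM protease and then by γ-secretase, and its intracellular domain enters the nucleus and, with RBPJ and Mastermind-like proteins, activates genes of the HES and HEY families. In the liver, Jag1 in the portal mesenchyme and Notch2 in the biliary lineage are needed to form bile ducts. Dll4 and Notch4 are best known from endothelium, and Notch3 from mural cells around vessels. The values below are mRNA levels and do not measure cleavage or signalling.

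The study aimed siRNA pools at 3 of the receptors, and those against Notch1 and Notch2 are shown because these are the most abundant receptors of the stroma and of the DCs below. Each strand is given 5′ to 3′ with the letters of the target RNA, and each matched the coding exons of its gene once in the longest coding GENCODE M21 transcript (GRCm38) and none of the other members. Against Notch1 (minus strand of chromosome 2, 34 exons), they lie at chr2:26477905-26477923 in exon 12, chr2:26460832-26460850 in exon 34, chr2:26472113-26472131 in exon 19 and chr2:26469616-26469634 in exon 24.
Notch1 siRNA 1: caagauugauggcuacgaa
Notch1 siRNA 2: gagcguaugcaccacgaua
Notch1 siRNA 3: agacagcuaugguacuuau
Notch1 siRNA 4: gcccguggauucaucugua
Against Notch2 (plus strand of chromosome 3, 34 exons), they lie at chr3:98111624-98111642 in exon 13, chr3:98122024-98122042 in exon 19, chr3:98146420-98146438 in exon 34 and chr3:98098159-98098177 in exon 6.
Notch2 siRNA 1: gugaaugguuuccggugua
Notch2 siRNA 2: ccugaaugcuggaacgugu
Notch2 siRNA 3: agaagugucugaacgagaa
Notch2 siRNA 4: gcaccugcaccaaccgaaa

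Libraries held 19636200 to 25673500 reads on genes in the homeostasis experiment (median 22398150) and 19303500 to 28075300 in the transwell experiment (median 22870400), and a value worth 3 reads or fewer is called at the floor here. The homeostasis values are the deposited ones, which lie between 0.722 and 1.39 times TPM. The transwell values are TPM made from deposited RPKM. Both are per gene length. In the homeostasis experiment each gene carries its own factor in each library, within that range. The factor moves ratios between members and also differences of a member between fractions. Calls of members that changed with the factor undone are given below. With it undone, Notch2 made up 67.3% to 71.3% of the receptor sum in DCs, and Notch1 64.5% to 67.7% in PDGFRα+SCA1+ cells, 80.3% to 88.6% in PDGFRα+SCA1− cells and 80.2% to 86.5% in PDGFRα−SCA1+ cells, so the main receptor was the same on both scales. The experiments were normalized separately. The labels were checked with marker genes before any member was read. The 6 ductal markers summed to between 56240 and 75890 in DCs of the homeostasis experiment, and the 6 mesenchymal markers to between 25450 and 48300 in both PDGFRα+ fractions. PDGFRα−SCA1+ cells held the 6 endothelial markers at a sum of 2753 to 2867 although CD31 was gated out, with Pecam1 (which encodes CD31) at 725.7 to 929.0. That fraction also held ductal markers at a sum of 79.3 to 3784 and blood cell markers at a sum of 62.7 to 251.0, so it is called by its gate. Hepatocyte markers summed to 5778 to 6907 in DCs, 2000 to 6405 in PDGFRα−SCA1+ cells and 208.2 to 1677 over both PDGFRα+ fractions. In bulk samples, fewer cells of a type and less RNA per cell cannot be told apart.

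Of the 4 receptors, DCs held mainly Notch2, and all 3 stromal fractions held mainly Notch1. The deposited value of Notch2 was 53.3, 43.0 and 26.3 in DCs of mice A, E and F, which was 61.0% to 70.0% of the summed level of the 4 receptors. It was 18.6, 21.6 and 34.8 in PDGFRα+SCA1+ cells, 17.5, 27.9 and 14.6 in PDGFRα+SCA1− cells, and 1.96, 3.38 and 5.16 in PDGFRα−SCA1+ cells. The DC libraries overlapped with both PDGFRα+ fractions, and PDGFRα−SCA1+ cells stood below all other libraries. Notch2 was lower in PDGFRα−SCA1+ cells than in DCs by a log2 difference of -3.22 ± 0.45 (SE, limma adjusted p = 0.000221). The difference between PDGFRα+SCA1+ cells and DCs was -0.68, with a 95% interval from -1.66 to 0.30.

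Notch1 was 22.0, 18.4 and 16.8 in DCs. It reached 84.1, 53.3 and 119 in PDGFRα+SCA1+ cells, 315, 236 and 103 in PDGFRα+SCA1− cells, and 137, 110 and 156 in PDGFRα−SCA1+ cells. Every stromal library stood above every DC library, and the stromal fractions overlapped each other. Notch1 was higher than in DCs by 2.04 ± 0.41 (log2, SE) in PDGFRα+SCA1+ cells, with a limma adjusted p of 0.00275, and by 3.31 ± 0.41 in PDGFRα+SCA1− cells, with an adjusted p of 6.98e-05. It made up 63.1% to 72.2% of the summed receptor level in PDGFRα+SCA1+ cells, 79.7% to 90.0% in PDGFRα+SCA1− cells and 82.1% to 84.8% in PDGFRα−SCA1+ cells.

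Notch3 and Notch4 split the stroma. Notch3 was at or near the floor in DCs (0.0688, 0.0334 and 0, from 4, 2 and 0 reads) and stood at 10.5, 9.18 and 21.9 in PDGFRα+SCA1+ cells and at 17.3, 10.8 and 11.0 in PDGFRα+SCA1− cells. In PDGFRα−SCA1+ cells it was 3.49, 3.09 and 0.342, below both PDGFRα+ fractions. Against DCs that fraction did not pass (1.49, limma adjusted p = 0.0983), and it did without mouse F (2.05, adjusted p = 0.0251). The rise over DCs was 3.75 ± 0.60 in PDGFRα+SCA1+ cells (log2, SE, limma adjusted p = 0.00059). Against DCs, mural and smooth muscle markers rose along with Notch3, 5 of 7 in PDGFRα+SCA1+ cells and 7 of 7 in PDGFRα+SCA1− cells. Between the PDGFRα+ fractions they did not follow it. There 5 of 7 were called lower in PDGFRα+SCA1+ cells, while Notch3 differed by 0.02 (log2). Added up, the markers lay between 75.0 and 142 for DCs and between 418 and 494 for PDGFRα+SCA1+ cells. For PDGFRα+SCA1− cells these markers added up to between 1806 and 3163. Their part in the result was not tested. Notch4 was 19.0, 17.4 and 22.7 in PDGFRα−SCA1+ cells and at most 3.33 in any other library of the experiment. Between PDGFRα−SCA1+ and PDGFRα+SCA1+ cells, Notch4 was higher by 3.42 ± 0.57 (limma adjusted p = 0.0011) and Notch3 lower, by -2.25 ± 0.60 (limma adjusted p = 0.0196). The Notch3 call was lost without PDGFRα+SCA1+ mouse F (adjusted p = 0.0829) and without PDGFRα−SCA1+ mouse F (adjusted p = 0.0726), with a pseudocount of 0.1 (adjusted p = 0.0571) and in a fit of only the groups compared (adjusted p = 0.0644). Notch4 moved with the endothelial markers named above, of which all 6 were called higher in the PDGFRα−SCA1+ fraction; their part in the result was not tested.

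**Figure D1:**
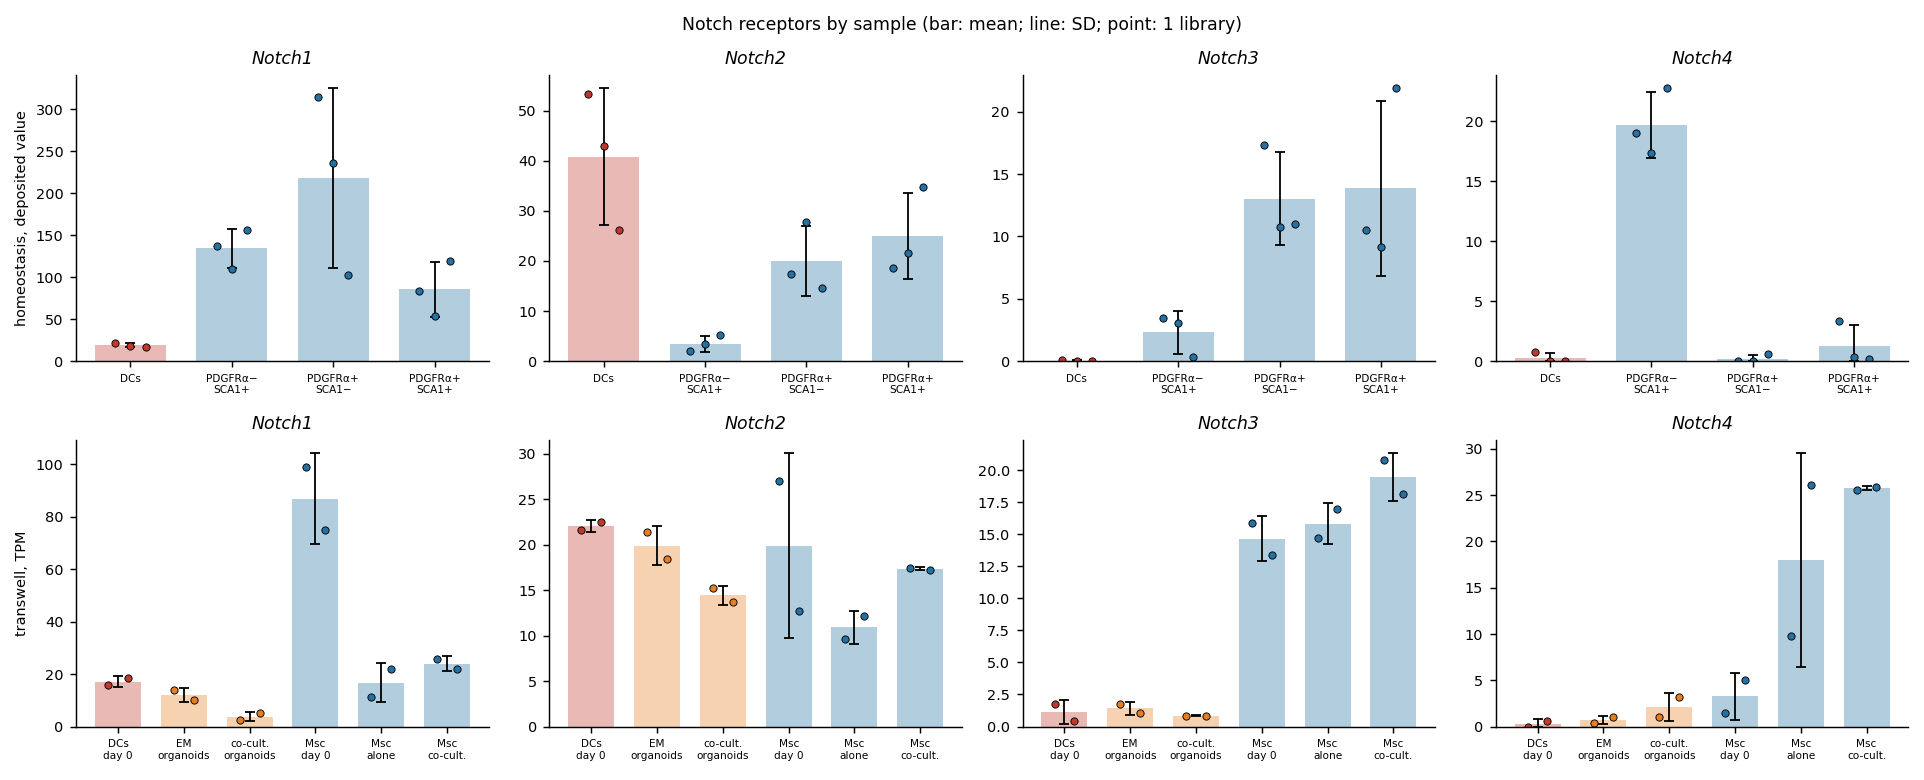
Level of each Notch receptor in every library, as deposited values in the homeostasis experiment (upper row, n = 3) and as TPM in the transwell experiment (lower row, n = 2). Bars are means, lines the SD and points single libraries, with DCs in red, organoids in orange and stroma in blue. Notch1 stood above DCs in every stromal library of the upper row, and Notch4 in PDGFRα−SCA1+ cells was between 17.4 and 22.7.

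Among the ligands, the DCs and PDGFRα+SCA1+ cells held mainly Jag1, and PDGFRα−SCA1+ cells mainly Dll4. Jag1 was 45.5, 30.8 and 39.3 in DCs, 58.4, 44.9 and 53.1 in PDGFRα+SCA1+ cells and 137, 64.3 and 101 in PDGFRα−SCA1+ cells. In PDGFRα+SCA1− cells it was 2.78, 46.8 and 7.78, with mouse E apart from the others. Jag1 differed in no comparison between fractions at an adjusted p under the threshold of 0.05. Without PDGFRα+SCA1− mouse E, however, it was lower in PDGFRα+SCA1− cells than in DCs by -2.76 (limma adjusted p = 0.000754) and its level in PDGFRα+SCA1+ cells exceeded that in the SCA1− fraction by 3.20 (limma adjusted p = 0.00701).

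Dll4 was 245, 303 and 352 in PDGFRα−SCA1+ cells, or 59.2% to 76.1% of the summed ligand level. In DCs it was 0, 0.0968 and 0.973, from 0, 2 and 22 reads. PDGFRα+SCA1+ cells held 4.2, 1.77 and 7.98, and PDGFRα+SCA1− cells 9.77, 32.0 and 0.118. Dll4 was thus higher in PDGFRα−SCA1+ cells than in DCs, by 7.85 ± 0.97 (limma adjusted p = 8.31e-05), and higher than in PDGFRα+SCA1+ cells, by 5.88 ± 0.97 (limma adjusted p = 0.00105). The difference between PDGFRα+SCA1− cells and DCs was 2.51 and did not pass (limma adjusted p = 0.0731), and without PDGFRα+SCA1− mouse F, the lowest of its 3 libraries, it was 3.87 (adjusted p = 0.000964).

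Dll1, a ligand that also marks some secretory progenitors, was 15.3, 19.3 and 12.6 in DCs and 21.6, 19.2 and 58.4 in PDGFRα−SCA1+ cells, which overlapped. It was 5.15, 6.2 and 3.76 in PDGFRα+SCA1+ cells and had no read in any of the 3 PDGFRα+SCA1− libraries. Against a floor of 3 reads per library, Dll1 was at least 156-fold lower in PDGFRα+SCA1− cells than in DCs (limma adjusted p = 0.000107) and at least 49.9-fold higher in PDGFRα+SCA1+ cells than in PDGFRα+SCA1− cells, although the latter did not pass (limma adjusted p = 0.0554). It did pass with a pseudocount of 0.1 (adjusted p = 0.00351), without the eBayes trend (adjusted p = 0.0208), with the recycled totals undone (adjusted p = 0.0241) and without PDGFRα+SCA1− mouse E (adjusted p = 0.0408). Jag2 had the same order of means at lower levels. It was 2.5, 1.81 and 4.52 in DCs, 10.6, 11.7 and 5.64 in PDGFRα−SCA1+ cells, 0, 0.0390 and 0.946 in PDGFRα+SCA1+ cells, and without a read in PDGFRα+SCA1− cells. Jag2 was lower in PDGFRα+SCA1+ cells than in DCs by -1.58 ± 0.50 (limma adjusted p = 0.0378), and with the mouse as a replicate block this call was lost (adjusted p = 0.0627). Leaving out single libraries also ended it, with adjusted p from 0.0702 to 0.166 without any one of the 3 DC libraries and of 0.128 and 0.123 without PDGFRα+SCA1+ mouse A or E. Against DCs, Jag2 was also lower in PDGFRα+SCA1− cells, at least 45.0-fold (limma adjusted p = 0.0128, and 0.0713 without DC mouse F), and the rise in PDGFRα−SCA1+ cells did not pass (1.39, limma adjusted p = 0.0668, and 0.0415 without PDGFRα−SCA1+ mouse F).

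**Figure D2:**
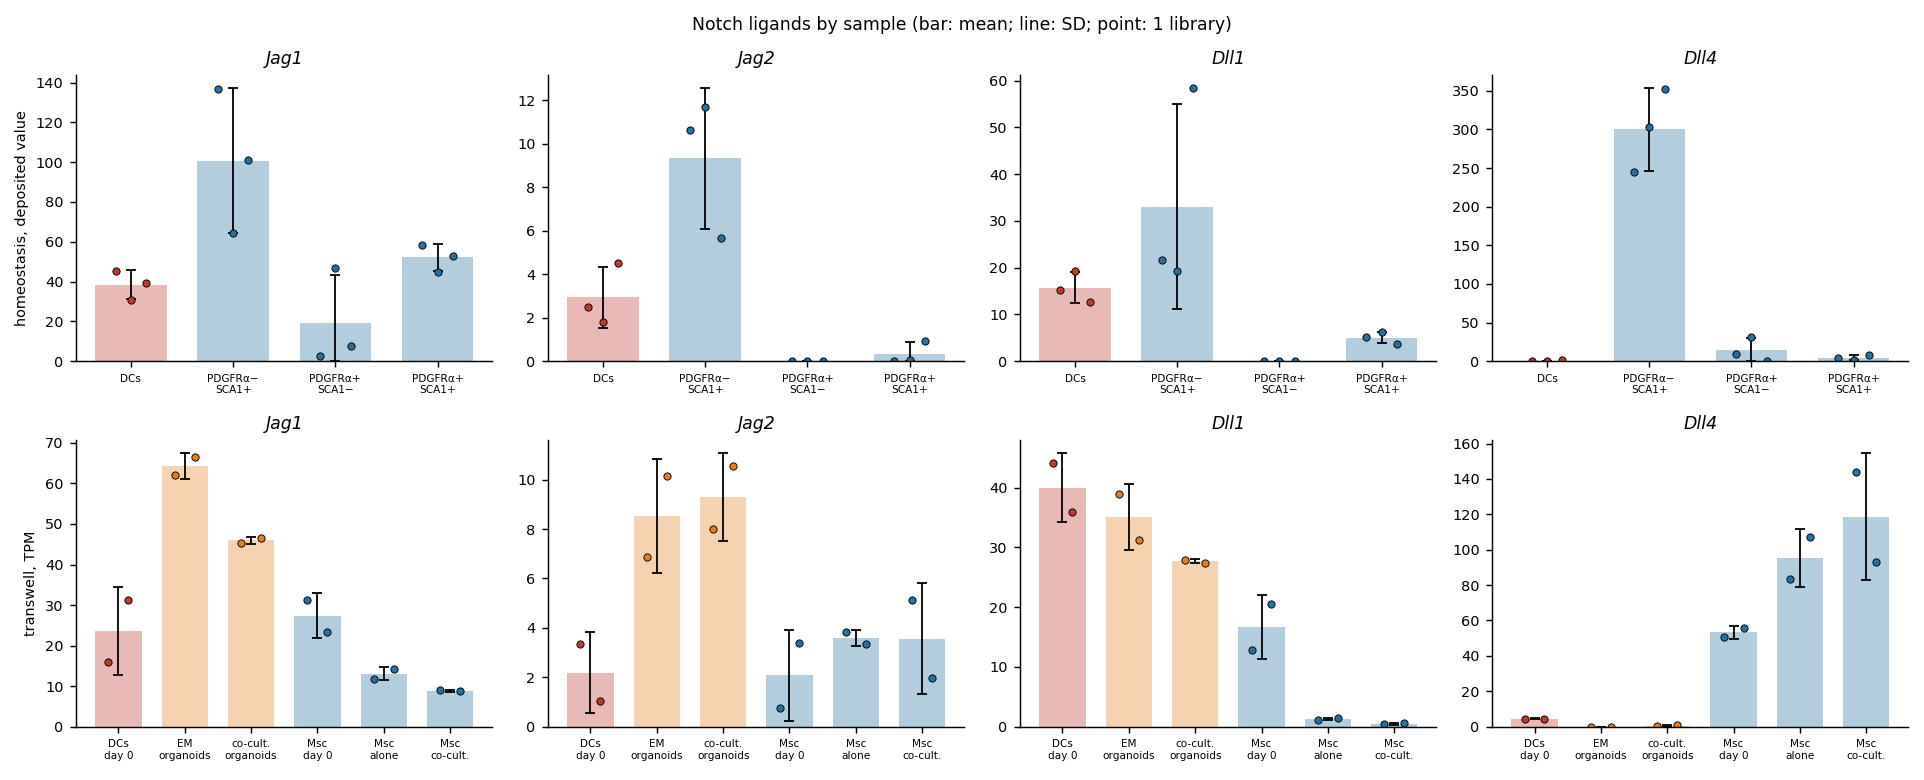
Level of each Notch ligand in every library, as deposited values in the homeostasis experiment (upper row, n = 3) and as TPM in the transwell experiment (lower row, n = 2), with bars for means, lines for the SD and points for libraries. Dll4 reached 245 to 352 in PDGFRα−SCA1+ cells, while Dll1 and Jag2 had no read in PDGFRα+SCA1− cells.

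The 2 target genes, transcriptional repressors of the basic helix-loop-helix type, behaved differently. Hes1 was high everywhere. It was 357, 324 and 416 in DCs, 262, 290 and 370 in PDGFRα+SCA1+ cells, 281, 330 and 414 in PDGFRα+SCA1− cells and 440, 394 and 726 in PDGFRα−SCA1+ cells. Groups next to each other in the order of their means overlapped, and Hes1 passed the test in none of the 5 comparisons (limma adjusted p from 0.0766 to 0.89). With the mouse as a replicate block, which pairs fractions of the same animal, it was higher in PDGFRα−SCA1+ than PDGFRα+SCA1+ cells by 0.72 ± 0.19 (limma adjusted p = 0.0278). Immediate early genes, which rise within minutes of a stimulus, were high in all 4 fractions as well, with a sum of 13720 to 27770 over 7 genes; their part in the level of Hes1 was not tested.

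Hey1 was close to absent in DCs (0, 0.527 and 0.0521, from 0, 12 and 1 reads). It stood at 18.3, 15.7 and 25.2 in PDGFRα+SCA1+ cells, 20.7, 14.1 and 27.2 in PDGFRα+SCA1− cells and 68.2, 75.0 and 86.1 in PDGFRα−SCA1+ cells. Both PDGFRα+ fractions overlapped and lay below PDGFRα−SCA1+ cells and above DCs. The rise over DCs was 4.12 ± 0.41 in PDGFRα+SCA1+ cells (limma adjusted p = 1.25e-05) and 6.04 ± 0.41 in PDGFRα−SCA1+ cells (limma adjusted p = 8.4e-07).

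Counted over the members, 4 of 10 differed between PDGFRα+SCA1+ cells and DCs (Notch1, Notch3 and Hey1 higher, Jag2 lower), where 23.8% of all genes tested did, and their median log2 difference was 0.55 against -0.28 over all genes. With the mouse as a replicate block the count was 3. Between PDGFRα+SCA1− cells and DCs it was 5 of 10, against 28.8% of all genes, and between PDGFRα−SCA1+ cells and DCs 5 of 10, against 22.8%. PDGFRα−SCA1+ and PDGFRα+SCA1+ cells differed in 7 of 10 members, against 18.8% of all genes, with a median of 1.40 against 0.25. With the mouse as a replicate block it was 8 of 10, Hes1 being added. PDGFRα+SCA1+ and PDGFRα+SCA1− cells differed in 0 of 10 by limma, against 0.587% of all genes, with 3 of 10 at an unadjusted p under 0.05 (Notch1, Jag1 and Dll1). Without PDGFRα+SCA1− mouse F, Notch1 passed there (-1.73, limma adjusted p = 0.0375). These comparisons share fractions.

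Before culture, the main receptors of the transwell experiment were those of the sorted fractions, and the main ligands were not. In DCs at day 0 Notch2 was 21.6 and 22.5 TPM and Notch1 15.7 and 18.6 TPM, while Notch1 reached 99.0 and 74.7 TPM in SCA1+Msc cells at day 0. The main ligand of DCs at day 0 was Dll1, at 49.5% to 65.0% of the ligand sum with Jag1 at 23.4% to 43.1%, whereas sorted DCs of the homeostasis experiment held 59.3% to 71.9% Jag1. SCA1+Msc cells at day 0 held mainly Dll4, whereas PDGFRα+SCA1+ cells held 80.7% to 86.2% Jag1 and 3.34% to 12.1% Dll4. The gates and the mice differed between the experiments. Members that differed between SCA1+Msc cells and DCs at day 0 were Notch1, Notch3, Notch4, Dll4 and Hey1, all higher in SCA1+Msc cells, and Dll1, which was lower. That is 6 of 10, against 46.1% of all genes tested, with a median log2 difference of 0.94 against -0.07. Dll4 was 50.6 and 55.9 TPM in SCA1+Msc cells and 4.52 and 4.36 TPM in DCs, a difference of 3.32 ± 0.31 (log2, SE, limma adjusted p = 2.18e-05). The Notch4 call was the weakest of them (limma adjusted p = 0.0492) and was lost under 8 of 12 alternatives, among them without DC replicate 1 (adjusted p = 0.226), without DC replicate 2 (adjusted p = 0.0679) and without SCA1+Msc day 0 replicate 2 (adjusted p = 0.273). The call of Hey1 was lost with a pseudocount of 0.1 (adjusted p = 0.1) and that of Dll1 in a fit of only the groups compared (adjusted p = 0.0672). Of the members not called, Hes1 passed with RPKM as deposited (0.34, limma adjusted p = 0.0351). Jag1 differed by 0.73 without DC replicate 2, and Notch2 by -0.75 without SCA1+Msc day 0 replicate 1.

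The SCA1+Msc cells of this experiment were not mesenchymal alone. At day 0 the 6 endothelial markers summed to 215.9 to 243.3 TPM, against 22140 to 23090 TPM for the 6 mesenchymal markers. Ductal markers summed to 1192 to 2539 TPM, hepatocyte markers to 16240 to 20920 TPM, and the 7 mural and smooth muscle markers to 935 to 1056 TPM. These values stand beside each change of SCA1+Msc cells with culture below, and their part in it was not tested.

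In culture, SCA1+Msc cells lost most of their Notch1, and no receptor made up more than 33.8% of the sum thereafter. Notch1 was 11.4 and 22.0 TPM in cells cultured alone and 25.9 and 22.0 TPM in co-cultured cells, against 99.0 and 74.7 TPM at day 0. All 4 cultured libraries lay below both day 0 libraries. Cells cultured alone differed from day 0 by -2.37 ± 0.35 (log2, SE, limma adjusted p = 0.000509). As a share of the summed receptor level, Notch1 went from 69.1% to 70.6% at day 0 to 25.0% to 28.4% in cells cultured alone.

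Notch4 moved the other way. It was 1.43 and 5.07 TPM at day 0, 9.80 and 26.1 TPM in SCA1+Msc cells cultured alone, and 25.6 and 25.9 TPM in co-cultured ones, with no overlap between day 0 and culture. The difference between cells cultured alone and day 0 was 2.16 ± 0.58 (limma adjusted p = 0.0136), and it was lost without SCA1+Msc day 0 replicate 1 (adjusted p = 0.0872) or without replicate 2 of the cells cultured alone (adjusted p = 0.108). Notch3 was 15.9 and 13.4 TPM at day 0 and 14.7 and 16.9 TPM in cells cultured alone, a difference of 0.11 with a 95% interval from -0.66 to 0.87. Notch2 was 27.1 and 12.7 TPM at day 0 and 9.62 and 12.2 TPM in cells cultured alone, and the difference of -0.73 did not pass (limma adjusted p = 0.0796). It passed with RPKM as deposited (limma adjusted p = 0.0463). Without SCA1+Msc day 0 replicate 2 it was -1.24 (adjusted p = 0.00207).

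**Figure D3:**
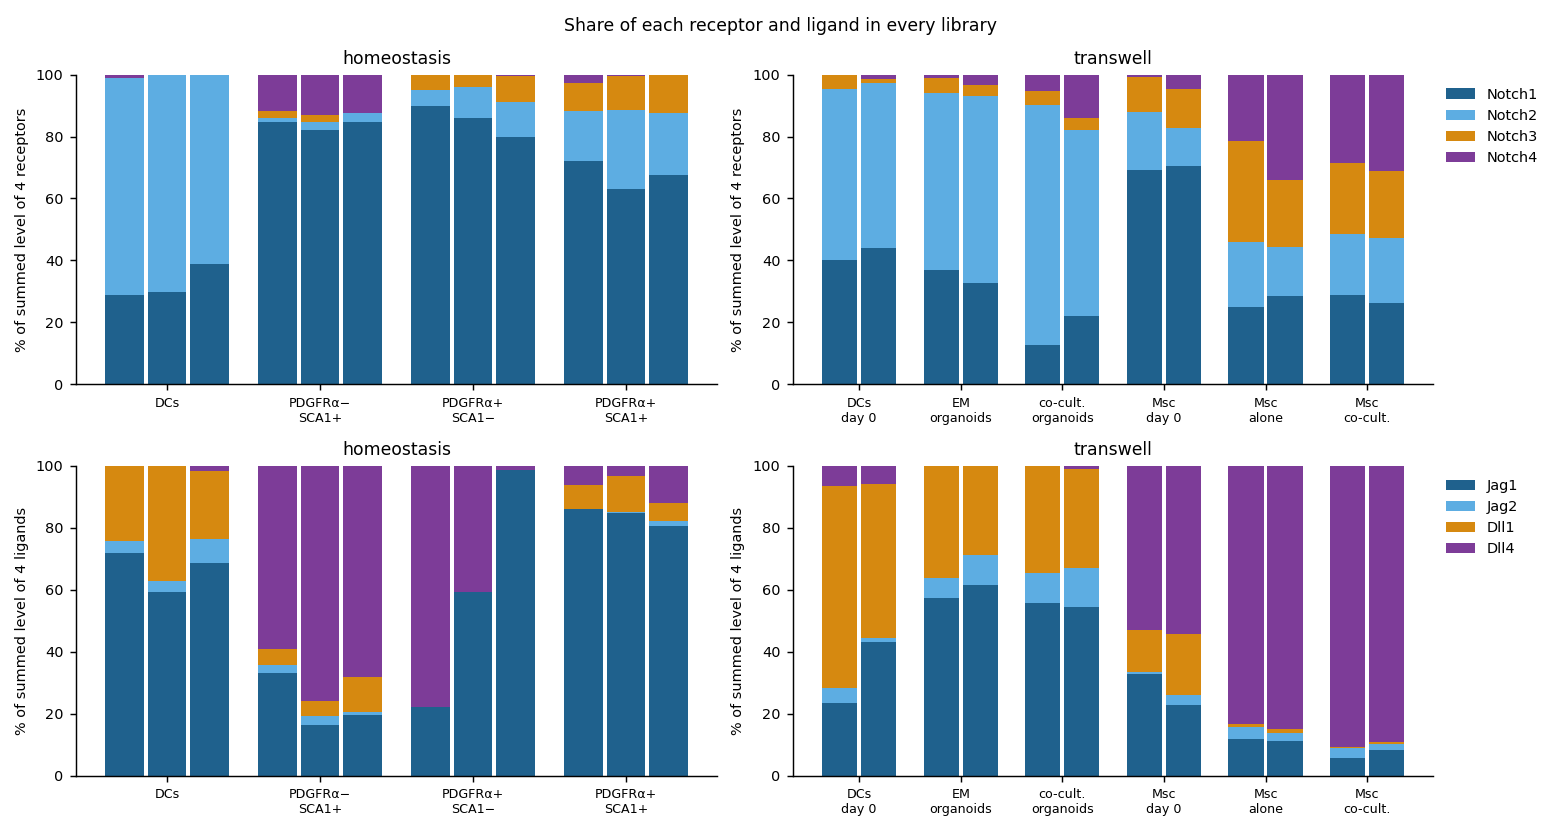
Share of each member in the summed level of the 4 receptors (upper row) and the 4 ligands (lower row), in percent, with 1 bar per library grouped by fraction or culture. Notch1 made up 69.1% to 70.6% of the receptors in SCA1+Msc cells at day 0 and 25.0% to 28.4% in cells cultured alone, and Dll4 53.0% to 54.2% and 83.2% to 85.0% of their ligands.

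Dll4 was the main ligand of SCA1+Msc cells before and after culture, at 53.0% to 54.2% of the summed ligand level at day 0 and 83.2% to 85.0% in cells cultured alone. Dll1 was 12.8 and 20.5 TPM at day 0 and fell to 1.14 and 1.35 TPM in cells cultured alone and 0.374 and 0.624 TPM in co-cultured cells. The difference between cells cultured alone and day 0 was -2.94 ± 0.27 (limma adjusted p = 2.4e-05). Jag1 fell from 31.3 and 23.4 TPM to 11.9 and 14.2 TPM, by -1.01 ± 0.28 (limma adjusted p = 0.0161), a call lost without SCA1+Msc day 0 replicate 1 (adjusted p = 0.084) or without replicate 1 of the cells cultured alone (adjusted p = 0.088). Dll4 was 50.6 and 55.9 TPM at day 0, 83.6 and 107 TPM in cells cultured alone and 144 and 93.3 TPM in co-cultured cells. All cultured libraries stood above day 0, and the difference of 0.82 ± 0.31 did not pass (limma adjusted p = 0.0553). It passed with a minimum value of 5 (limma adjusted p = 0.0464) and with RPKM as deposited (0.71, limma adjusted p = 0.0282).

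Endothelial markers of the SCA1+Msc cells moved unevenly over the same interval. Tek and Kdr fell from 43.2 to 1.22 and from 32.8 to 6.92 TPM (means), and Flt4 fell as well. Pecam1, Cdh5 and Tie1 did not pass, with 75.3 and 63.9, 32.7 and 44.2, and 30.7 and 36.9 TPM at day 0 and in cells cultured alone. Of the 6 ductal markers, 5 fell. All 5 hepatocyte markers fell, from a sum of 16240 to 20920 TPM to between 2.63 and 13.9 TPM. The mural and smooth muscle markers went from a sum of 935 to 1056 TPM to between 3392 and 3651 TPM, with 2 of 7 called higher and 2 lower, and Acta2, which held most of the sum, at 515 and 2950 TPM did not pass (means, limma adjusted p = 0.064). The part of any of these in the changes of Notch1, Notch4, Jag1 and Dll1 was not tested.

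Hes1 and Hey1 separated in culture. In SCA1+Msc cells Hes1 was 343 and 352 TPM at day 0, 53.0 and 65.2 TPM in cells cultured alone and 46.6 and 52.7 TPM in co-cultured cells. That fall of -2.54 ± 0.12 (limma adjusted p = 5.06e-07) stayed past the threshold under every alternative. Hey1 was 11.5 and 10.2 TPM at day 0, 19.1 and 23.8 TPM in cells cultured alone and 17.6 and 13.5 TPM in co-cultured cells. Its difference of 0.92 ± 0.43 between cells cultured alone and day 0 did not pass (limma adjusted p = 0.113). With RPKM as deposited, Hey1 passed (0.73, limma adjusted p = 0.0313). The 7 immediate early genes fell together with Hes1, from a sum of 22790 to 23430 TPM at day 0 to 544.2 to 671.2 TPM in cells cultured alone, and all 7 passed the test. Proliferation genes rose, 5 of 5. Their part in the change of Hes1 was not tested.

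**Figure D4:**
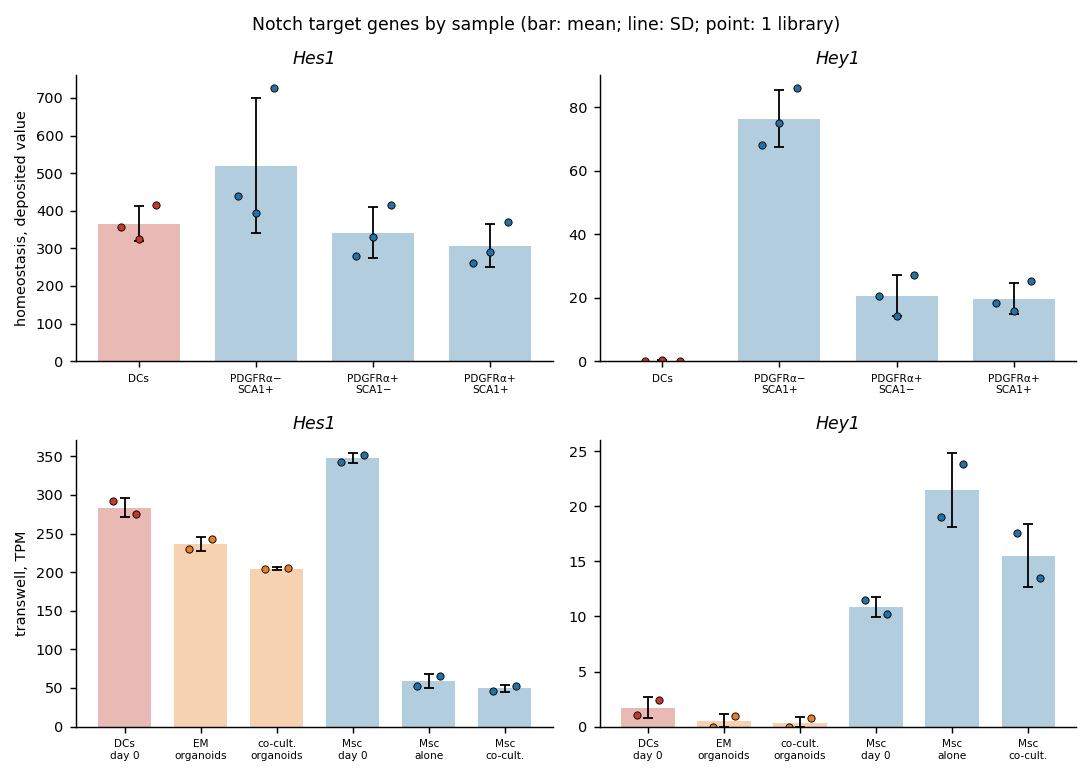
Level of Hes1 and Hey1 in every library, as deposited values in the homeostasis experiment (upper row, n = 3) and as TPM in the transwell experiment (lower row, n = 2). Bars are means, lines the SD and points single libraries. Hes1 in SCA1+Msc cells lay at 343 and 352 TPM at day 0 and between 46.6 and 65.2 TPM in culture, while in organoids it lay between 204 and 243 TPM.

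Counted over the members, 5 of 10 differed between SCA1+Msc cells cultured alone and at day 0 (Notch4 higher, Notch1, Jag1, Dll1 and Hes1 lower), against 44.8% of all genes tested, with a median log2 difference of -0.31 against 0.18. Co-culture with DCs added no called difference: 0 of 10 members passed between co-cultured SCA1+Msc cells and those cultured alone by limma, 0 of 10 had an unadjusted p under 0.05, and 0.127% of all genes passed. With 2 libraries a group the intervals are wide, and that for Notch4, for instance, ran from -0.67 to 1.95.

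DCs took another course. Their hepatocyte markers summed to 4177 to 5260 TPM at day 0, 1514 to 1626 TPM in EM organoids and 176.0 to 376.5 TPM in co-cultured organoids. The part of these markers in the changes of members below was not tested. Jag1 was 15.9 and 31.3 TPM in DCs at day 0, 62.0 and 66.5 TPM in EM organoids and 45.3 and 46.6 TPM in co-cultured organoids, so all organoid libraries were above day 0. The differences were 1.48 ± 0.28 in EM organoids (limma adjusted p = 0.0021) and 1.01 ± 0.28 in co-cultured organoids (limma adjusted p = 0.0168). Both were lost in a fit of only the groups compared (adjusted p = 0.0704 and 0.146), and the latter also without DC replicate 1 (0.54, adjusted p = 0.109) and without either co-cultured organoid library (adjusted p = 0.0653 and 0.0739). Jag2 was 3.35 and 1.02 TPM at day 0, 6.88 and 10.2 TPM in EM organoids and 8.02 and 10.5 TPM in co-cultured ones. It rose by 1.66 ± 0.54 (limma adjusted p = 0.032) and 1.78 ± 0.54 (limma adjusted p = 0.0248). Both Jag2 calls were lost without DC replicate 2 (1.11 and 1.23, adjusted p = 0.209 and 0.171), and that in EM organoids also without EM organoid replicate 1 or 2 (adjusted p = 0.0643 and 0.156) and that in co-cultured organoids without co-cultured organoid replicate 1 or 2 (adjusted p = 0.0647 and 0.119).

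Dll1, at 44.1 and 36.0 TPM the most abundant ligand of DCs at day 0, was 39.0 and 31.2 TPM in EM organoids and 27.9 and 27.5 TPM in co-cultured organoids, and passed in neither comparison. Dll4 was 4.52 and 4.36 TPM at day 0, had no read in either EM organoid library and stood at 0.0290 and 0.792 TPM in co-cultured organoids. It was at least 38.4-fold lower in EM organoids than in DCs at day 0 (floor of 3 reads per library, limma adjusted p = 0.000175). The 6 endothelial markers were above the floor in DCs at day 0, at a sum of 26.9 to 27.1 TPM, and in EM organoids 5 of the 6 were at or under the floor in both libraries. Their part in the fall of Dll4 was not tested.

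Notch2 remained the main receptor of the DC lineage. It was 21.4 and 18.4 TPM in EM organoids and 15.2 and 13.7 TPM in co-cultured organoids, or 57.2% to 60.4% and 60.2% to 77.6% of the summed receptor level. The differences from day 0 were -0.14 (95% interval from -0.82 to 0.54) and -0.58 (95% interval from -1.26 to 0.10). The latter passed in a fit of only the groups compared (limma adjusted p = 0.0385). Notch4 was 0 and 0.634 TPM in DCs at day 0, 0.435 and 0.991 TPM in EM organoids and 1.07 and 3.16 TPM in co-cultured organoids. Its difference of 1.20 between co-cultured organoids and day 0 did not pass (limma adjusted p = 0.133). With the replicate number as a block it passed (limma adjusted p = 0.0343). Notch3 lay between 0.457 and 1.78 TPM in DCs at day 0 and organoids. Notch1 was 13.8 and 9.99 TPM in EM organoids and 2.48 and 5.0 TPM in co-cultured organoids. In co-cultured organoids it was lower than in DCs at day 0 by -1.99 ± 0.35 (limma adjusted p = 0.00152). Against EM organoids it was lower by -1.48 ± 0.35 (limma adjusted p = 0.023), a call lost without EM organoid replicate 1 (adjusted p = 0.146), without EM organoid replicate 2 (adjusted p = 0.0606), without co-cultured organoid replicate 1 (adjusted p = 0.167) and under quantile normalization (adjusted p = 0.0565).

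Hes1 stayed high in organoids, at 230 and 243 TPM in EM and 204 and 206 TPM in co-cultured organoids, against 292 and 275 TPM in DCs at day 0. The co-cultured organoids lay lower by -0.47 ± 0.12 (limma adjusted p = 0.0105), lost without DC replicate 1 (adjusted p = 0.0627), without co-cultured organoid replicate 1 (adjusted p = 0.0514) and without the eBayes trend (adjusted p = 0.0582). For Hes1 in EM organoids, the difference from DCs at day 0 was -0.26 and did not pass (limma adjusted p = 0.107). Under quantile normalization it passed (-0.47, limma adjusted p = 0.00898). Hey1 was 1.03 and 2.40 TPM in DCs and 0, 0.959, 0 and 0.731 TPM in the 4 organoid libraries. Immediate early genes fell in DCs too, from a sum of 8865 to 8898 TPM at day 0 to 895.9 to 943.2 TPM in EM organoids.

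Between EM organoids and DCs at day 0, 3 of 10 members differed, against 44.4% of all genes tested. Between co-cultured organoids and DCs it was 5 of 10, against 42.3%, and between co-cultured and EM organoids 1 of 10, which was Notch1, against 12.9%. The first 2 share the DCs at day 0. Across the insert, co-cultured SCA1+Msc cells and co-cultured organoids differed in 8 of 10 members, against 36.7% of all genes, the exceptions being Notch2 and Jag2. In that pair Dll4 was 144 and 93.3 TPM in the stroma and 0.0290 and 0.792 TPM in the organoids, and Jag1 9.03 and 8.65 TPM in the stroma and 45.3 and 46.6 TPM in the organoids.

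**Figure D5:**
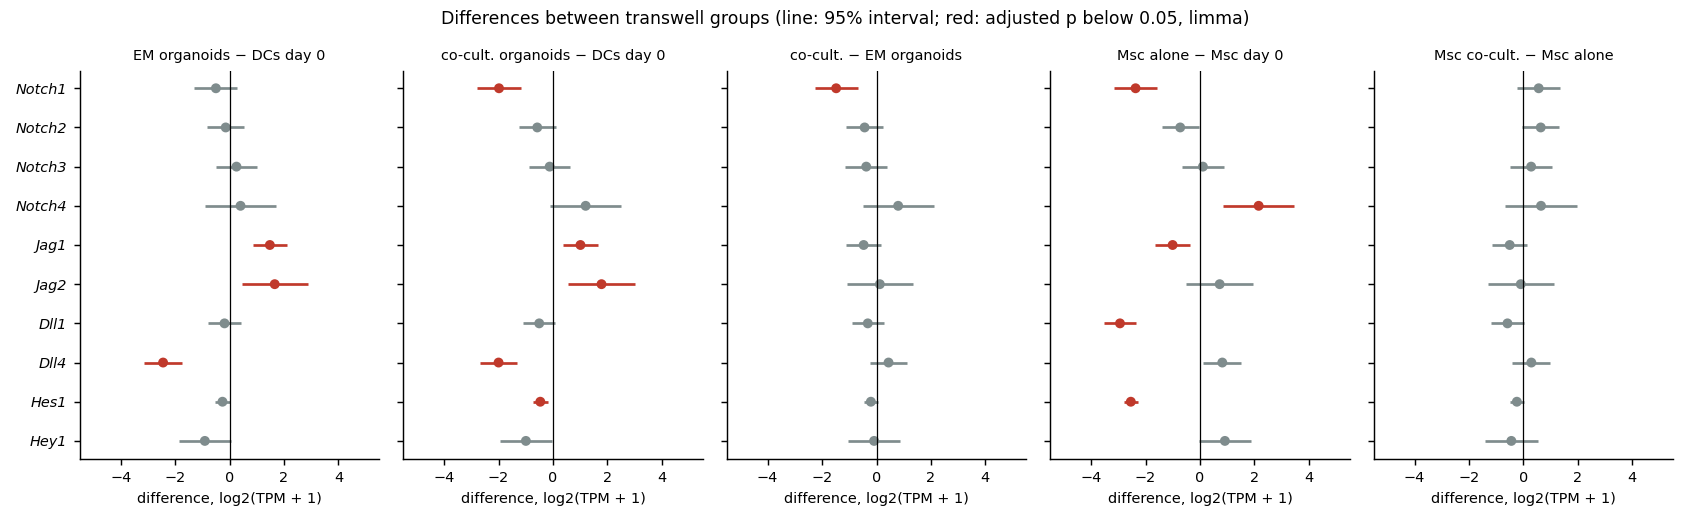
Differences of the 10 members between transwell groups on the log2(TPM + 1) scale, with points for the estimate, lines for the 95% interval and red for a limma adjusted p below 0.05. In SCA1+Msc cells cultured alone, Hes1 differed from day 0 by -2.54 and Notch4 by 2.16, and no member is red between co-cultured SCA1+Msc cells and those cultured alone.

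The change with culture was compared directly between lineages, as SCA1+Msc cells alone minus day 0 against EM organoids minus DCs at day 0. It differed for 5 of 10 members, against 26.8% of all genes tested. Co-cultured organoids were not part of this test. Their Notch1 was lower than in DCs at day 0 by -1.99, so the Notch1 difference below is one against EM organoids. EM organoids grew in a gel in growth-factor rich medium. SCA1+Msc cells were first expanded on the plate in a medium without those factors. Lineage, mouse and culture conditions cannot be told apart here. The change of Hes1 in SCA1+Msc cells minus that in DCs was -2.28 ± 0.17 (log2, SE, limma adjusted p = 2.41e-05), that of Dll1 -2.75 ± 0.37 (limma adjusted p = 0.000785), that of Jag1 -2.49 ± 0.40 (limma adjusted p = 0.0019) and that of Dll4 3.26 ± 0.44 (limma adjusted p = 0.000703). Notch1, at -1.86 ± 0.50 (limma adjusted p = 0.0221), lost the call without replicate 1 of any of the 4 groups (adjusted p = 0.0705 for DCs, 0.0778 for EM organoids, 0.0573 for SCA1+Msc cells at day 0 and 0.0706 for those cultured alone). Hey1 did not pass at 1.82 (limma adjusted p = 0.0514). It passed with a minimum value of 5 (limma adjusted p = 0.0399), with the replicate number as a block (0.042) and with RPKM as deposited (0.0285). The difference of Hey1 was 2.20 without DC replicate 1 and 2.31 without EM organoid replicate 2. Notch4 did not pass at 1.75 (limma adjusted p = 0.154), and passed with the replicate number as a block (limma adjusted p = 0.0448). Notch2 passed without SCA1+Msc day 0 replicate 2 (-1.10, adjusted p = 0.02).

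The rest of the pathway was read from 42 further genes: other ligands, other HES, HEY and Notch response genes, the cleavage machinery, glycosyltransferases, ubiquitin ligases for ligands, the nuclear complex and modulators of the receptor. Between PDGFRα+SCA1+ cells and DCs, 3 of the 38 that could be tested were higher, against 9.85% of all genes, and 4 lower, against 14%. Hey2, a HEY factor, was 8.03 ± 1.9 in PDGFRα+SCA1+ cells (mean ± SD, n = 3) and 0.128 ± 0.22 in DCs (limma adjusted p = 0.0062). Neurl3, of the Neuralized family of ubiquitin ligases, was lower, at 54.9 ± 14 against 1445 ± 216 (limma adjusted p = 2.4e-06). Adam10, the protease of the first receptor cleavage, was 23.2 ± 3.5 against 98.4 ± 11 (limma adjusted p = 0.000102).

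PDGFRα−SCA1+ cells differed from PDGFRα+SCA1+ cells in more of these genes, with 10 of 38 higher, against 10.9% of all genes, and 4 lower, against 7.86%. Mfng, a glycosyltransferase of the Fringe family, was 75.9 to 101.2 in PDGFRα−SCA1+ cells and without a read in PDGFRα+SCA1+ cells (limma adjusted p = 1.3e-06). Nrarp, a feedback inhibitor of Notch, was 14.1 to 23.8 against 0.0619 to 0.480 (limma adjusted p = 5.09e-05). Heyl, a HEY factor of mural cells, was the reverse, at most 0.0618 against 22.7 to 63.0 (limma adjusted p = 0.012).

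In co-cultured organoids, 11 of 39 of these genes were higher than in DCs at day 0, against 23.2% of all genes, and 8 were lower, against 19.1%. Lfng, another Fringe enzyme, rose from 0.893 to 0.928 TPM to between 6.47 and 9.27 TPM (limma adjusted p = 0.000637), and Neurl3 fell from 1291 to 1407 TPM to between 185.6 and 240.9 TPM (limma adjusted p = 0.000481). Dtx3, a Deltex family ubiquitin ligase, was at 25.1 to 25.6 TPM, below the 61.3 to 71.3 TPM of DCs and the 84.9 to 85.2 TPM of EM organoids (limma adjusted p = 5.49e-05 for the latter). In SCA1+Msc cells cultured alone, 7 of 39 were higher than at day 0, against 27.4% of all genes, and 7 were lower, against 17.4%. Adam10 rose there from 20.9 to 22.4 TPM to between 82.2 and 95.6 TPM (limma adjusted p = 3.96e-06), and Heyl was 32.3 to 50.8 TPM at day 0 and 18.0 to 23.5 TPM in culture (limma adjusted p = 0.035). Between co-cultured SCA1+Msc cells and those cultured alone, 0 of 39 passed by limma and 1 had an unadjusted p under 0.05.

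For each member, the genes of most similar pattern were found by the lower of 2 Pearson correlations of log2(value + 1), over the 12 libraries of each experiment and among 13366 genes. These libraries share cell types, so the values only describe. For Dll4 these were Bcl6b (r = 0.953 for homeostasis and 0.975 for transwell libraries), Esam and Arap3, for Notch4 Elk3 (r = 0.926 and 0.941), Hoxb7 and Mecom, and for Notch3 Gng8 (r = 0.97 and 0.973), Tmem119 and Loxl2. Hey1 was most alike to Fcgrt (r = 0.972 in both), Gata4 and Lrrc32, and Notch1 to Mbd1 (r = 0.932 and 0.934), Sh2b3 and Mndal. For Notch2 the closest gene, Acsl4, reached only r = 0.832 and 0.762, followed by Nr6a1 and Morc2a. Hes1 was closest to Zfand5 (r = 0.868 and 0.943), Cd79b and Elf1, Jag1 to Sod1, Hpcal1 and Cpm, Jag2 to Clta, Fam32a and Ybx1, and Dll1 to Arhgef3, Dennd1c and Yes1.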

How the data were processed

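RNA-seq of 24 libraries was used, 12 in each experiment, grouped by the population or culture that the labels name. The members and gene lists were chosen with earlier results of these data known. Smart-seq2 libraries without strand information were aligned by the authors to GRCm38 with STAR 2.5.0a and counted on exons with featureCounts 1.6.0. Exons of Notch1, Notch2, Notch3, Dll1 and Dll4 overlap those of other annotated genes in GENCODE M21, on the same strand for Notch2 and the opposite one for the others, and reads there cannot be told apart in these libraries. The authors deposited the transwell values as RPKM, scaled here to TPM. For the homeostasis experiment they deposited a score named TPM, whose library totals run on from gene to gene down the table. It was used as deposited, and TPM with this undone was an alternative. The 4 deposited columns of group means were not used.

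Reads were recovered from RPKM or the deposited score and exon lengths, and 91.0% to 94.1% of low values came out within 0.02 of a whole read. Floors cover counting error only. Replicates came from littermates and differed beyond sampling noise (chi-square per degree of freedom of at least 27.9 in 18 pairs).

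Genes that reached 1 in 3 or more homeostasis or 2 or more transwell libraries were fitted on log2(value + 1), with 1 mean per group over the 12 libraries, in limma 3.58.1 (R 4.3.3) with an eBayes trend and two-sided tests. Fold changes on this scale understate the change of low genes. P-values were adjusted by Benjamini-Hochberg over all 17028 or 18133 genes, with a threshold of 0.05, and the fit was tested on simulated data, where changes of low genes were recovered less often. All 10 members were named, and up to 3 further pathway genes per list and comparison. Mice A, E and F are the same animals in every fraction, so the fit with the mouse as a block is paired. Same-mouse deviations from group means correlated by 0.01 to 0.097 over genes. Alternatives were a pseudocount of 0.1, no filter, a minimum of 5, quantile normalization, no trend, only the groups compared, the block, the other unit, at least a 2-fold change, and each library left out. Python 3.11.15 with pandas 2.3.3 made the summaries.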

Additional observations from a re-analysis of the deposited data

Results flagged for a closer look

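The response to culture of 5 members differed between SCA1+Msc cells and DCs by a test of the difference itself (limma, cells cultured alone minus day 0 against EM organoids minus day 0). Medium, culture format and mice differed along with the lineage, and these cannot be told apart. On the log2 scale the difference was -1.86 for Notch1, -2.49 for Jag1, -2.75 for Dll1, 3.26 for Dll4 and -2.28 for Hes1. Co-cultured organoids were not part of this test, and their Notch1 was lower than in DCs at day 0 by -1.99. Jag1 was lower in culture in SCA1+Msc cells and higher in EM organoids. Dll4 was lower in EM organoids, and in SCA1+Msc cells its difference of 0.82 did not pass in the main fit. Groups of 2 or 3 libraries were not tested for single libraries that stand apart.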

How the results depend on the processing

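Recomputed values covered member differences that were called or of 2-fold or more. Of 54 called differences of members, 38 stayed past the threshold under every alternative and 16 were lost under at least 1; no direction reversed in 906 recomputed values. All 14 differences of 2-fold or more that were not called passed under at least 1 alternative. The number of members called moved by over 1.5 times in the following cases, and by less in others. For PDGFRα+SCA1+ against PDGFRα+SCA1− cells it was 1 with a pseudocount of 0.1, without the eBayes trend and with the recycled totals undone, and 0 to 2 with single libraries left out. Between EM organoids and DCs at day 0 it was 1 in a fit of only the groups compared. Between co-cultured organoids and DCs it was 2 to 4 with single libraries left out. Between co-cultured and EM organoids it was 0 under quantile normalization and with only the groups compared, and 0 to 1 with single libraries left out. Between SCA1+Msc cells alone and at day 0 it was 8 with RPKM as deposited, 3 with only the groups compared, and 3 to 6 with single libraries left out. Fits of only the groups compared hold fewer libraries; other causes were not tested. With single libraries left out, the count ranged over 3 to 4, 4 to 6, 5 to 7 and 6 to 7 for the first 4 comparisons between sorted fractions in the order of the report, 2 to 3 for EM organoids against DCs, 5 to 7 for SCA1+Msc cells against DCs at day 0 and 4 to 6 for the difference between lineages. A pseudocount of 0.1 gave 5 in place of 7 members between PDGFRα−SCA1+ and PDGFRα+SCA1+ cells (Hey1 and Notch3 lost). A lone library left in a group was assumed to vary like the others.

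With the mouse as a replicate block, PDGFRα−SCA1+ and PDGFRα+SCA1+ cells differed in 8 members in place of 7 (Hes1 gained), and PDGFRα+SCA1+ cells and DCs in 3 in place of 4; the other homeostasis counts were 5, 5 and 0 as without it. Labels of transwell libraries give a replicate number and name no mouse (correlations of -0.019 to 0.03). Whether libraries of the same number and lineage share a mouse is not stated. With that number as a replicate block, the counts against DCs were 3 for EM organoids and 6 for co-cultured organoids. They were 1 for co-cultured against EM organoids, 5 for SCA1+Msc cells alone against day 0 and 0 for co-cultured SCA1+Msc cells against alone. SCA1+Msc cells against DCs at day 0 gave 6, co-cultured SCA1+Msc cells against co-cultured organoids 8, and the difference between lineages 7. Quantile normalization moved the median of all genes by 0.177 for PDGFRα+SCA1+ cells against DCs and by 0.337 for PDGFRα+SCA1− cells against DCs.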
